A study of Arabidopsis thaliana with 8 samples.

Results

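Cytochromes P450 are heme enzymes that insert 1 oxygen atom into a small molecule, with electrons passed on from NADPH by a reductase. In plants most sit on the endoplasmic reticulum and act in the making or breakdown of hormones, phenolics, glucosinolates, terpenes and surface lipids. Their names give a family number, a subfamily letter and a gene number. The genes described here are those whose symbol, in the table that pairs the array's probe sets with genes, is CYP followed by 2 or 3 digits and a capital letter. There were 25 such genes, each with 1 probe set of its own, among 16746 probe sets that name 1 gene and 28583 in all. A RefSeq gene table lists 252 P450 genes for the species, so most of the superfamily was not analysed here. Of the 25 genes, 21 belong to family 71, all of them in subfamily CYP71B, 2 to family 79, 1 to family 78 and 1 to family 84.

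RNA came from leaves of Arabidopsis thaliana, ecotype Col-0, and was hybridised to 8 one-colour Affymetrix arrays, 4 labelled fbn5-1 and 4 labelled wild type (WT). The fbn5-1 line carries a T-DNA insertion in FBN5, a gene for a plastid lipid-associated fibrillin, and is 1 allele. Plants of both genotypes were untreated, 3 weeks old and raised on 0.5x MS medium with 1% sucrose, at 25 °C under 16 h of light. The labels do not say whether arrays of 1 genotype came from separate plants or cultures, so p-values rest on the scatter of these samples alone, and that scatter may be technical.

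The signal of FBN5 itself went against its label. On the log2 scale FBN5 was at 4.71, 4.52, 4.76 and 4.58 on arrays 1 to 4 labelled fbn5-1, and at 3.54, 3.35, 3.43 and 5.15 on arrays 1 to 4 labelled WT. It was not lower in the mutant label, and the difference of 0.78 (SE 0.36) missed the threshold (limma adjusted p = 0.173); without WT array 4 it was 1.20 (adjusted p = 0.000534). The probe set may lie outside the part that the insertion disrupts, in which case its signal is no check, and every direction below rests on the labels. WT array 4 correlated with the other WT arrays at 0.961 to 0.964 over all probe sets, while the arrays labelled fbn5-1 correlated among themselves at 0.984 to 0.990. Of 7 leaf markers 2 had a probe set naming them alone. RCA, the activase of Rubisco, averaged 10.97 ± 0.09 in the arrays labelled fbn5-1 and 11.0 ± 0.02 in those labelled WT (log2, SD, n = 4 each), and PRK, phosphoribulokinase, averaged 7.99 ± 0.08 and 8.06 ± 0.25 in the same order (limma adjusted p = 0.719 and 0.738). Of 24 markers of root, pollen, trichome and epidermis, guard cell and phloem, 4 had a probe set of their own. The root hair expansin EXPA7 (2.67 in the arrays labelled fbn5-1 and 2.54 in those labelled WT) and the pollen pectin methylesterase VGD1 (1.69 and 1.53, in the same order) lay under the filter described next. PYK10, a beta-glucosidase of root ER bodies, averaged 9.48 ± 0.21 and 8.78 ± 1.31, and the guard cell regulator FAMA 5.49 ± 0.18 and 5.68 ± 0.25, in that order of labels (limma adjusted p = 0.404 and 0.411). On WT array 4 PYK10 was at 6.84, against 9.23 to 9.70 on the other WT arrays. Without that array its difference was 0.059.

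Testing was limited to probe sets with a mean above log2 2.79 across the arrays, the 40th percentile of all probe sets. Calls needed a limma adjusted p under 0.05 over the 17147 tested. The filter passed 13 of the 25 P450 genes, 12 of family 71 and CYP84A4. The other 12 were dim. Both label means were under 2.79 for 10 of them, the exceptions being CYP71B23, at 2.79 in the arrays labelled fbn5-1, and CYP78A9, at 2.95 in those labelled WT. CYP78A9, with a mean of 2.73 over the 8 arrays, fell just under the filter value, and CYP84A4, with 2.92, lay just above it. Mean signals of the 25 genes ran between 1.04 and 6.22 in the arrays labelled fbn5-1 and between 1.12 and 6.39 in those labelled WT. Probe sets differ in how brightly they respond, so these signals do not rank the genes by transcript amount. In whole-leaf RNA, fewer cells of a type and less RNA per cell cannot be told apart.

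**Figure D1:**
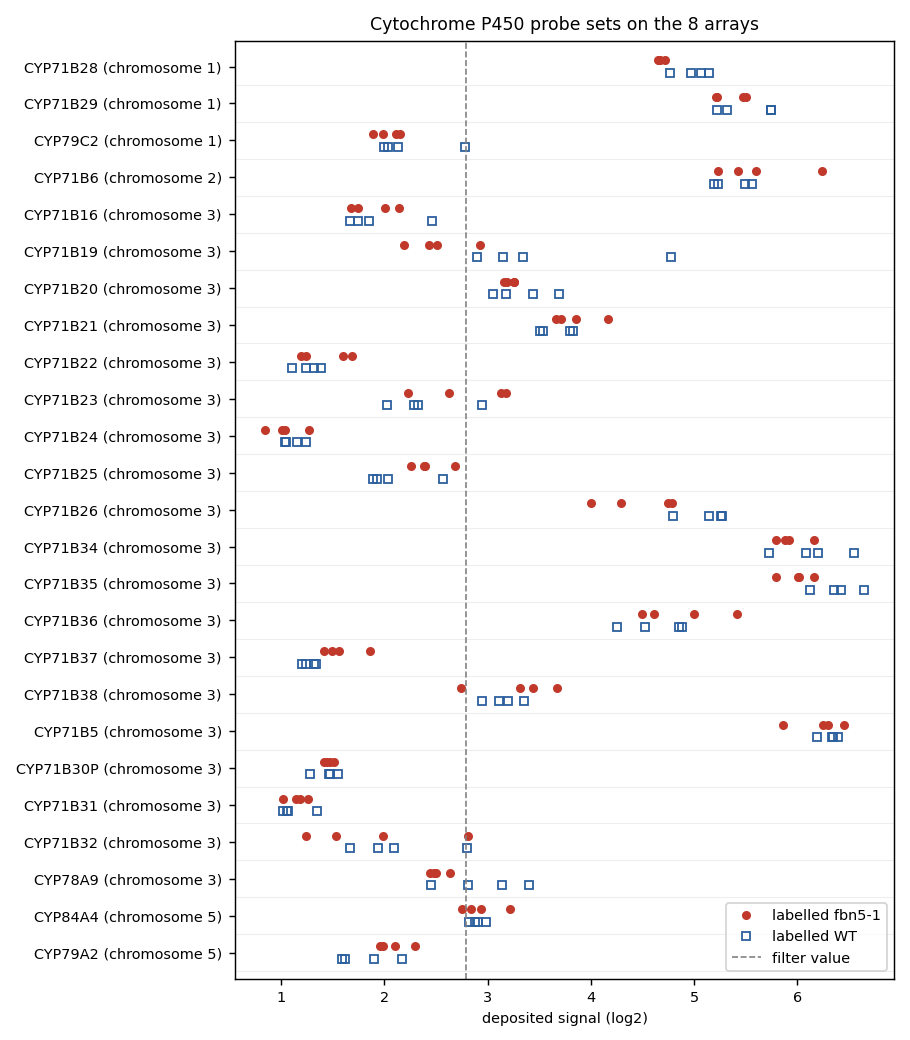
Log2 signal of each of the 25 P450 probe sets on each array, in gene order along the chromosomes, with filled points for the 4 arrays labelled fbn5-1 above open squares for the 4 labelled WT; the dashed line is the filter value of 2.79. CYP71B19 on WT array 4, at 4.78, stands away from the other WT arrays, and most other genes overlap between labels.

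One P450 gene fell in the arrays labelled fbn5-1, CYP71B26, and 0 rose. That is 1 of 13 tested, or 7.69%, against a background of 16.8% of all tested probe sets called, 8.22% higher and 8.55% lower. At an unadjusted p under 0.05, limma gave 4 P450 genes lower and 0 higher, where it gave 16.9% of all tested probe sets lower and 15.9% higher. The 4 include CYP71B19, which passed the filter through the WT arrays. Its mean was 2.52 in the arrays labelled fbn5-1, under the filter value, and 3.54 in those labelled WT. The 8 arrays separated by label without overlap for 2 of the 13 genes, CYP71B26 and CYP71B28, against 23.6% of all tested probe sets. Differences were negative for 8 of the 13 and positive for 5. Their median was -0.12 on the log2 scale, against -0.015 for all tested probe sets. For 11 of the 13 the 95% interval of the difference lay within 2-fold either way; the exceptions were CYP71B26 and CYP71B19.

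**Figure D2:**
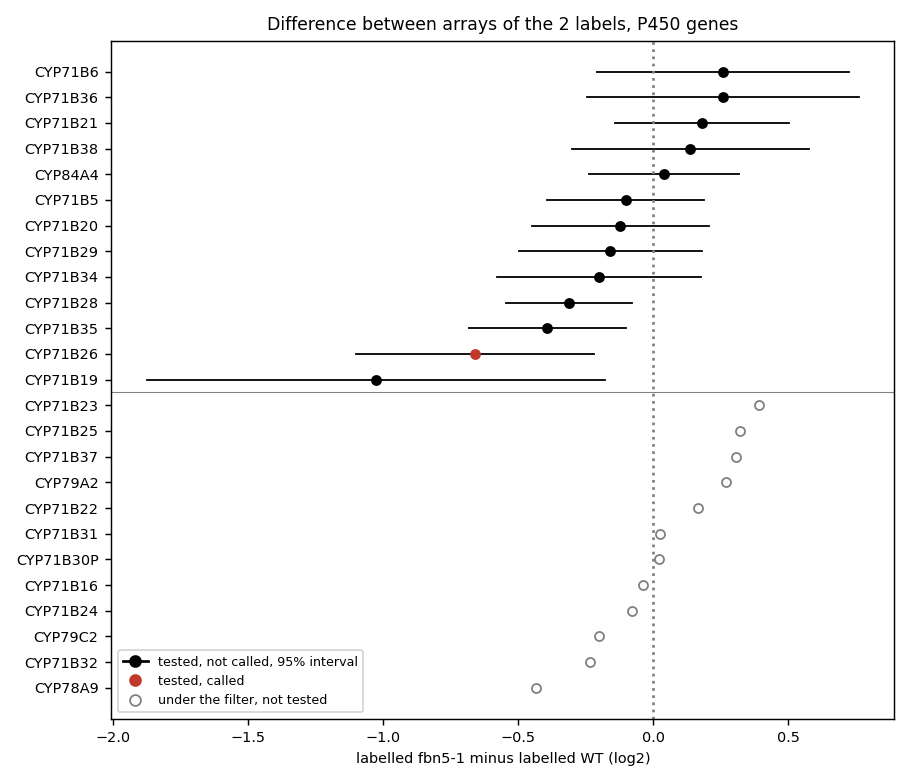
Difference in log2 signal, arrays labelled fbn5-1 minus arrays labelled WT, for the 13 tested P450 genes with their 95% limma intervals and, under the line, for the 12 genes under the filter without an interval. CYP71B26 is the called gene, and CYP71B19 has the widest interval.

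CYP71B26 (AT3G26290) had signals of 4.79, 4.29, 4.00 and 4.75 on the arrays labelled fbn5-1, and of 5.14, 5.27, 5.26 and 4.80 on those labelled WT. The highest of the fbn5-1 values lies just under the lowest of the WT values, which is that of WT array 4. Its mean was 4.46 ± 0.38 in the arrays labelled fbn5-1 and 5.12 ± 0.22 in those labelled WT (SD, n = 4 each), a decrease to 0.633 of the WT level (log2 difference -0.66, SE 0.19, adjusted p = 0.0479). The call held without fbn5-1 array 1, fbn5-1 array 4 or WT array 4, but was lost when any of the remaining 5 was left out (highest adjusted p = 0.115, without WT array 2). It also ended without a filter (adjusted p = 0.0658), without an intensity trend (0.0504), over the whole series table (0.0624) and when the replicate number was a block (0.105).

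Family 71 made up most of the 25 genes. CYP71B is a subfamily that has grown by tandem duplication, and CYP71B15 (PAD3), the last enzyme of camalexin synthesis, is its best known member; PAD3 was not analysed here. For most CYP71B enzymes no role is given below. By the order of genes in the RefSeq table, 13 of the 21 form a run on chromosome 3, CYP71B16 (AT3G26150) to CYP71B37 (AT3G26330). The run spans 25 genes, of which 18 are P450 genes. A second run of 4 lies further along that chromosome, CYP71B5 (AT3G53280) to CYP71B32 (AT3G53305), and CYP71B28 and CYP71B29 are neighbours on chromosome 1. CYP71B6 on chromosome 2 and CYP71B38 on chromosome 3 stand alone. Tandem copies are close in sequence, and how far their probes share transcripts is not known here; no member's 8 values were the same as those of another probe set.

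In the run on chromosome 3, 7 of 13 genes passed the filter. Of these 7, 1 was called (CYP71B26), where 16.8% of all tested probe sets were called. The median difference of the 7 was -0.20, against -0.015 for all tested probe sets. CYP71B16, the first gene of the run, was dim, with 1.68, 2.01, 1.74 and 2.14 on the arrays labelled fbn5-1 and 1.67, 1.74, 2.46 and 1.85 on those labelled WT. CYP71B19 (AT3G26170) had 2.51, 2.93, 2.19 and 2.43 on the arrays labelled fbn5-1, against 3.15, 2.90, 3.34 and 4.78 on those labelled WT. WT array 4 was thus 1.65 above the mean of the other 3 WT arrays, while fbn5-1 array 2 lay just above the lowest WT array. The difference of -1.03 (SE 0.38, 95% interval -1.87 to -0.18) was the largest of the 25 and was not called (adjusted p = 0.0917). Without WT array 4 it was -0.62 (SE 0.19), but over the remaining 7 arrays the mean of CYP71B19 was 2.779, under the filter value of 2.784 set on those arrays, so no call is read from it. It passed with array weights (-0.74, adjusted p = 0.0487). Because the fbn5-1 mean, 2.52, was under the filter value, the size depends on signal near the floor, and with 16 added to the linear signal it was -0.39.

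The next genes of the run moved less. CYP71B20 had 3.16, 3.26, 3.26 and 3.19 on the arrays labelled fbn5-1, all inside the WT range, and 3.69, 3.18, 3.05 and 3.44 on those labelled WT (difference -0.12, 95% interval -0.45 to 0.20). CYP71B21 had 3.71, 4.17, 3.86 and 3.66 on the arrays labelled fbn5-1 and 3.80, 3.51, 3.83 and 3.54 on those labelled WT (difference 0.18, 95% interval -0.14 to 0.50). Neither passed the test, with adjusted p of 0.604 and 0.421 in limma.

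Then came 4 dim genes in a row among those analysed, all under the filter in their mean over the 8 arrays. Other genes lie between some of them, 1 between CYP71B23 and CYP71B24 and 6 between CYP71B24 and CYP71B25. CYP71B22 had 1.60, 1.24, 1.19 and 1.69 on the arrays labelled fbn5-1 and 1.24, 1.11, 1.39 and 1.32 on those labelled WT. CYP71B23 had 2.63, 3.13, 3.18 and 2.23 on the arrays labelled fbn5-1 and 2.29, 2.33, 2.95 and 2.03 on those labelled WT. In CYP71B23 the values spread widely inside each label and array 4 is lowest in both. CYP71B24 had 0.84, 1.27, 1.04 and 1.01 on the arrays labelled fbn5-1 and 1.04, 1.05, 1.24 and 1.15 on those labelled WT. CYP71B25 had 2.39, 2.38, 2.68 and 2.26 on the arrays labelled fbn5-1, against 1.89, 1.93, 2.04 and 2.57 on those labelled WT. Apart from WT array 4, the WT arrays of CYP71B25 all lay below those labelled fbn5-1.

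Bright genes followed among those analysed, CYP71B26 with CYP71B34, CYP71B35 and CYP71B36. CYP71B34 had 6.16, 5.88, 5.92 and 5.79 on the arrays labelled fbn5-1 and 6.55, 6.20, 5.73 and 6.08 on those labelled WT (difference -0.20, SE 0.17, adjusted p = 0.441). Its neighbour CYP71B35 had 6.02, 6.16, 5.79 and 6.01 on the arrays labelled fbn5-1, against 6.65, 6.42, 6.12 and 6.36 on those labelled WT. Among the WT arrays both genes were highest on array 1 and lowest on array 3, and the labels of CYP71B35 overlap by 1 array each way. The difference of CYP71B35 was -0.39 (SE 0.13, 95% interval -0.68 to -0.10) and missed the threshold (adjusted p = 0.0661). It was called without WT array 3 (-0.48, adjusted p = 0.044), with arrays set to a common median (adjusted p = 0.0483) and with array weights (adjusted p = 0.0301).

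CYP71B36 and CYP71B37, which close the run, had higher means in the arrays labelled fbn5-1. CYP71B36 had 5.42, 4.50, 5.0 and 4.61 on the arrays labelled fbn5-1 and 4.85, 4.52, 4.88 and 4.25 on those labelled WT (difference 0.26, SE 0.22, adjusted p = 0.465). CYP71B37 had 1.56, 1.49, 1.86 and 1.42 on the arrays labelled fbn5-1, against 1.20 to 1.34 on those labelled WT, without overlap. This probe set was under the filter, and when all 28583 probe sets were tested its difference of 0.31 (SE 0.10) was not called (adjusted p = 0.0992). With 16 added to the linear signal it was 0.046. Within the run, 7 of 12 pairs of successive analysed genes had differences of the same sign, with 6 genes positive and 7 negative. Some of these pairs have other genes between them, up to 6 between CYP71B24 and CYP71B25.

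**Figure D3:**
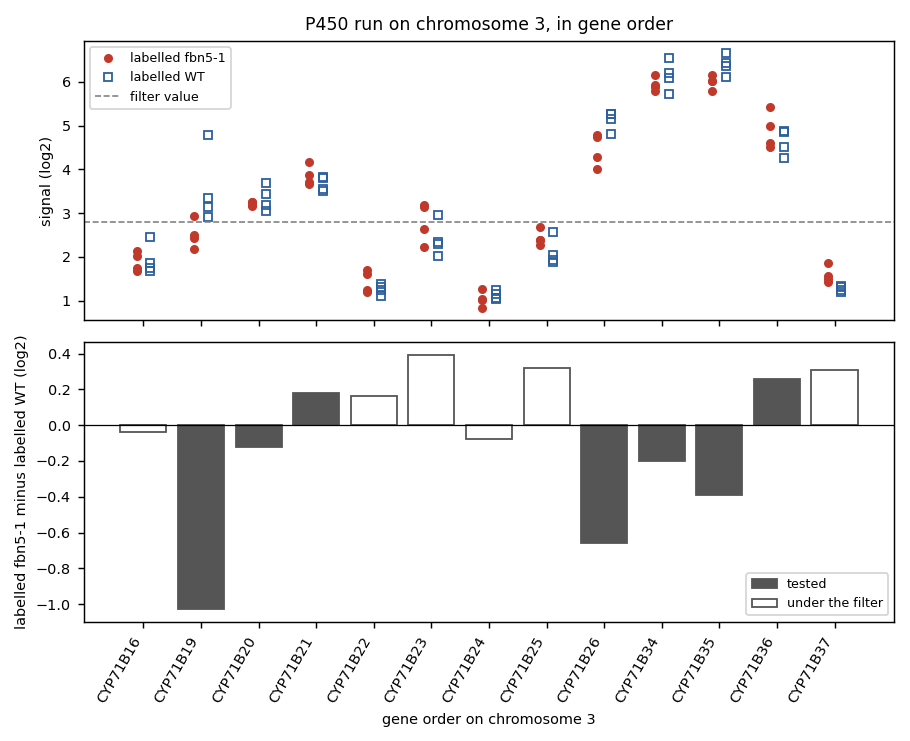
The 13 P450 genes of the run on chromosome 3 in gene order, with log2 signal per array above (filled points labelled fbn5-1, open squares labelled WT, dashed line the filter value of 2.79) and the difference, arrays labelled fbn5-1 minus WT, below. Filled bars passed the filter; signs vary along the run, from -1.03 in CYP71B19 to 0.39 in CYP71B23.

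On chromosome 1, CYP71B28 (AT1G13090) had 4.65, 4.67, 4.72 and 4.66 on the arrays labelled fbn5-1, and 5.07, 4.97, 5.14 and 4.77 on those labelled WT. The labels did not overlap, and the arrays labelled fbn5-1 lay close together. The difference of -0.31 (SE 0.10, 95% interval -0.54 to -0.08) was not called (adjusted p = 0.067). Without WT array 4, the lowest of the WT arrays, it was -0.39 (SE 0.09) and was called (adjusted p = 0.0189), as it was with arrays set to a common median (0.0408) and with array weights (0.0168). Its neighbour CYP71B29 had 5.47, 5.21, 5.50 and 5.22 on the arrays labelled fbn5-1 and 5.75, 5.32, 5.22 and 5.75 on those labelled WT (difference -0.16, SE 0.15, adjusted p = 0.504).

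In the second run on chromosome 3, CYP71B5 alone passed the filter. It had 5.86, 6.45, 6.30 and 6.25 on the arrays labelled fbn5-1 and 6.34, 6.35, 6.19 and 6.39 on those labelled WT (difference -0.10, 95% interval -0.39 to 0.19, adjusted p = 0.625). CYP71B30P, whose symbol marks a pseudogene, had 1.42, 1.44, 1.47 and 1.51 on the arrays labelled fbn5-1 and 1.55, 1.28, 1.46 and 1.47 on those labelled WT. CYP71B31, which acts on linalool in flowers, had 1.18, 1.02, 1.26 and 1.14 on the arrays labelled fbn5-1 and 1.06, 1.35, 1.02 and 1.07 on those labelled WT. Both genes lay far under the filter, with differences of 0.02 and 0.025. CYP71B32 had 1.24, 2.81, 1.99 and 1.53 on the arrays labelled fbn5-1 and 2.09, 1.67, 1.94 and 2.80 on those labelled WT. Its spread inside the fbn5-1 label, 0.69 (SD, n = 4), was the largest of the 25 genes in that label.

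CYP71B38 had 3.31, 3.44, 3.67 and 2.74 on the arrays labelled fbn5-1 and 2.95, 3.11, 3.20 and 3.35 on those labelled WT (difference 0.14, SE 0.19, adjusted p = 0.67). Array 4 was the lowest of the fbn5-1 label and the highest of the WT label. All WT values lie inside the range of the fbn5-1 label.

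Genes with a known product in defence metabolism were next. CYP71B6 (AT2G24180) turns indole-3-acetonitrile into indole carboxylic derivatives, a side branch of camalexin and indole glucosinolate metabolism. It had 5.23, 6.24, 5.60 and 5.43 on the arrays labelled fbn5-1 and 5.56, 5.19, 5.49 and 5.23 on those labelled WT. Array 2 of the fbn5-1 label was 0.82 above the mean of the other 3. Array 3 of that label, at 5.60, lay just above the highest WT value of 5.56, and the other two lay inside the WT range. The difference was 0.26 (SE 0.21, 95% interval -0.21 to 0.72, adjusted p = 0.426). CYP79A2 and CYP79C2 belong to the family that turns amino acids into aldoximes, the first step of glucosinolate synthesis; CYP79A2 takes phenylalanine and leads to benzylglucosinolate. CYP79A2 had 2.30, 1.96, 2.10 and 1.99 on the arrays labelled fbn5-1 and 2.17, 1.62, 1.90 and 1.59 on those labelled WT. CYP79C2 had 2.15, 2.11, 1.89 and 1.99 on the arrays labelled fbn5-1, against 2.0, 2.13, 2.04 and 2.78 on those labelled WT. Both were under the filter, and in CYP79C2 WT array 4 lies above the other 7 arrays.

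CYP84A4 (AT5G04330) acts in the synthesis of arabidopyrones, pyrones made from phenylpropanoids. It had 3.22, 2.75, 2.84 and 2.94 on the arrays labelled fbn5-1 and 2.88, 2.91, 2.82 and 2.98 on those labelled WT. The WT values lie inside the range of the fbn5-1 label, and the difference was 0.04 (SE 0.12, 95% interval -0.24 to 0.32, adjusted p = 0.855). CYP78A9 (AT3G61880), of a family that promotes organ growth and itself known from fruit and seed size, had 2.50, 2.44, 2.48 and 2.64 on the arrays labelled fbn5-1. On the arrays labelled WT it had 3.40, 3.14, 2.81 and 2.45. Only WT array 4 lies within the fbn5-1 range. With all probe sets tested its difference of -0.44 (SE 0.19) was not called (adjusted p = 0.196).

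When the filter was dropped, so that all 25 genes were tested, limma called 0 of them, against 8.5% of all 28583 probe sets. The 12 dim genes then had adjusted p between 0.0992 (CYP71B37) and 0.931 (CYP71B16). At an unadjusted p under 0.05 it then gave 1 P450 gene higher (CYP71B37) and 5 lower of the 25, against 12.7% of all probe sets higher and 11.2% lower. Without WT array 4, and with the filter kept as set on all 8 arrays, 3 of the 13 tested genes were called, all lower, against 22.5% of all tested probe sets. With the filter recomputed over the remaining 7 arrays, an alternative chosen after seeing the data, CYP71B19 was no longer tested. The calls were then 2 of 12, CYP71B26 and CYP71B28, against 22.6% of all tested probe sets. With the filter of all 8 arrays, the decrease of CYP71B26 without WT array 4 was 0.766 on the log2 scale (SE 0.19, adjusted p = 0.02). The counts of P450 genes called higher stayed at 0 in all 19 alternatives run, and those called lower lay between 0 and 4. These counts are out of 8 to 25 P450 genes tested, depending on the alternative. Over the same alternatives, 4.46% to 11.2% of all tested probe sets were called higher and 4.04% to 14.7% lower.

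**Figure D4:**
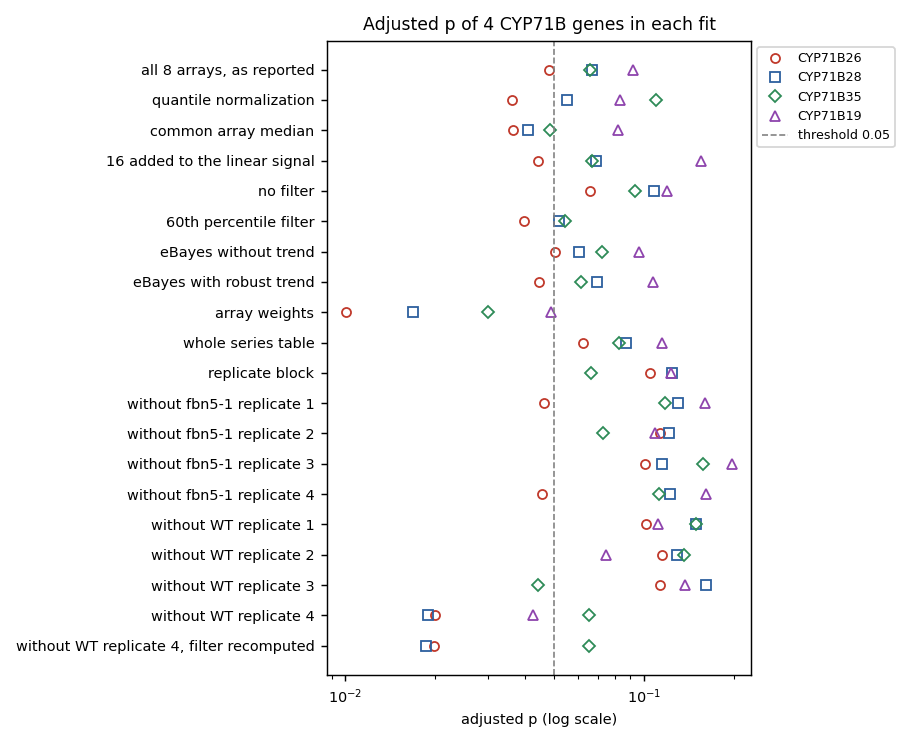
Adjusted p on a log axis of the 4 CYP71B genes with an unadjusted p under 0.05, chosen after their values were seen, in the reported fit (top) and in 19 alternatives; the dashed line is the threshold of 0.05. CYP71B26 lies left of it in the reported fit and in 10 alternatives, and all 4 genes do with array weights. CYP71B19 has no point in the lowest line or in that of the 60th percentile filter, where it was not tested.

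Arrays were also set against the others of their own label. A deviation of over 1 on the log2 scale from the mean of the other 3 occurred for 1 of 25 P450 genes on WT array 4 (CYP71B19, 1.65) and for 1 on fbn5-1 array 2 (CYP71B32, 1.22), and for 0 on the other 6 arrays. Of the 13 tested P450 genes, 1 deviated this far on WT array 4 and 0 on the other 7 arrays, as CYP71B32 lay under the filter. Over all tested probe sets the share with such a deviation was 6.59% on WT array 4 and between 0.35% and 1.67% on the other 7. The median size of the deviation over the 25 genes was 0.183 on WT array 4, against 0.23 for all tested probe sets on that array, and 0.147 to 0.257 on the other 7 arrays. Among the other genes, the largest single deviations were those of CYP71B6 on fbn5-1 array 2 (0.82), of CYP71B23 on fbn5-1 array 4 (-0.75) and of CYP71B38 on fbn5-1 array 4 (-0.73). The median SD inside a label was 0.194 for the arrays labelled fbn5-1 and 0.22 for those labelled WT over the 25 genes. Over all tested probe sets it was 0.168 and 0.18, in the same order of labels. Neither this median nor that of the deviation compares like sets, since 12 of the 25 genes lay under the filter.

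**Figure D5:**
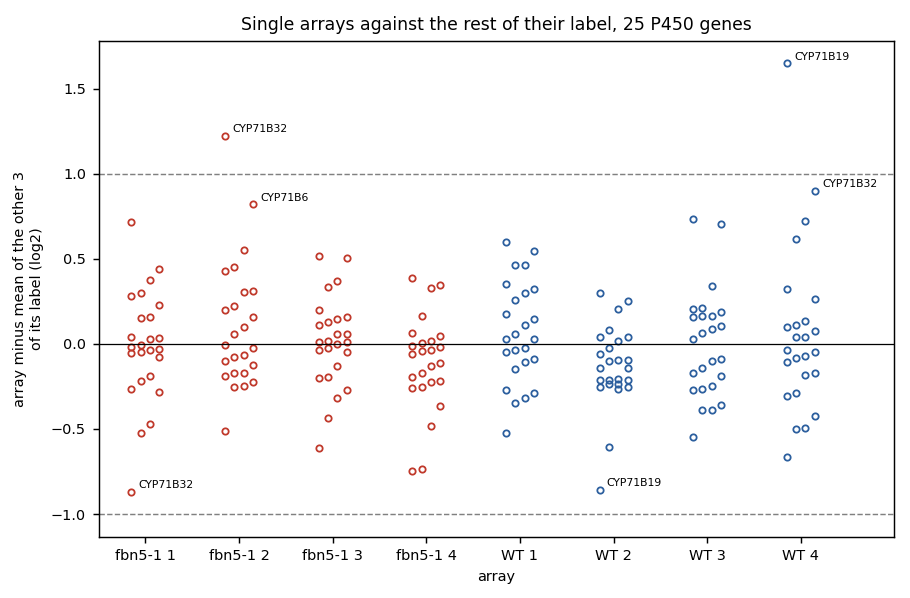
Each of the 25 P450 genes on each array, as that array's log2 signal minus the mean of the other 3 arrays of its label; dashed lines mark a deviation of 1 and names are given past 0.8. CYP71B19 on WT array 4 (1.65) and CYP71B32 on fbn5-1 array 2 (1.22) lie past the lines.

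Other genes of the pathways in which P450 enzymes act were listed by function, and few had a probe set that names them alone. Of all 28583 probe sets 11079 name no gene in the annotation and 758 name several, so a listed gene may be on the array without a name. Of 8 electron donors of P450 enzymes, 0 were named by a probe set of their own. The same held for the lists of brassinosteroid, abscisic acid, jasmonate, cutin and wax, carotenoid and sterol metabolism. In glucosinolate synthesis 1 of 25 listed genes was named, UGT74B1, the glucosyltransferase that acts after the aldoxime steps of CYP79 and CYP83 enzymes. It had 4.56, 4.29, 4.03 and 4.47 on the arrays labelled fbn5-1 and 4.08, 3.67, 3.85 and 4.21 on those labelled WT (difference 0.39, SE 0.16, adjusted p = 0.127). Of 21 listed phenylpropanoid genes 1 was named, HCT, a hydroxycinnamoyl transferase that works beside the P450 hydroxylases of lignin synthesis. It averaged 7.37 ± 0.12 in the arrays labelled fbn5-1 and 7.40 ± 0.18 in those labelled WT (difference -0.03, SE 0.11, adjusted p = 0.863).

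Of 14 genes of gibberellin synthesis and response, the 3 receptors had a probe set naming them alone, and 2 of these 3 fell, where 8.55% of all tested probe sets were called lower and 16.8% in either direction. GID1C had 4.20, 4.14, 4.48 and 4.28 on the arrays labelled fbn5-1, against 5.04, 4.92, 4.77 and 4.76 on those labelled WT, without overlap (difference -0.60, SE 0.11, adjusted p = 0.00972). GID1A averaged 5.67 ± 0.10 in the arrays labelled fbn5-1 and 5.98 ± 0.08 in those labelled WT (difference -0.31, SE 0.09, adjusted p = 0.0448). The call of GID1C held in all 19 alternatives, and that of GID1A in 6, ending without any 1 of the 8 arrays (adjusted p of up to 0.108, without WT array 3). GID1B had a difference of -0.34 (SE 0.14, adjusted p = 0.131); it was called in 2 of the 19 alternatives, with array weights (adjusted p = 0.0321) and without fbn5-1 array 2 (0.0421). No P450 gene of gibberellin synthesis was among the 25.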

How the data were processed

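Leaf RNA of 4 fbn5-1 and 4 WT samples was measured on one-colour arrays. The deposited values are log2 signals, 1 per probe set and array; the log base was taken from their range, and the submitters' processing notes name MAS5, with background correction and scaling not given in the sources used here. Array medians lay between 3.46 and 3.49 for the arrays labelled fbn5-1 and between 3.42 and 3.45 for those labelled WT, so they separated by label. The scaling was kept as deposited, with a common median as an alternative, under which 3 P450 genes were called lower in place of 1. The share of all tested probe sets called lower was then 11%, against 8.55% as deposited. The series matrix (28583 probe sets) and the series table (38408) hold the same values where they overlap. Symbols come from GEO's platform annotation; all 25 members were matched by gene number to the RefSeq table of TAIR10.1, used for locus tags and gene order only. Detection calls were not used here.

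The arrays were compared with limma 3.58.1 in R 4.3.3 (lmFit, eBayes with an intensity trend, two-sided), as fbn5-1 minus WT, without the replicate number as a block. Benjamini-Hochberg adjustment ran over all 17147 tested probe sets. The script was tested on simulated data. Of the listed symbols, LCR and FDH named other genes in the tables, and no value was read for them. FDH is still counted among the 24 listed markers of other cell types.

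Members and lists were chosen with earlier results of these data known. Genes to be named were the called members (at most 30), up to 5 members per role group, the 5 with the largest single-array deviation, up to 4 called members per partner list, and FBN5; the remaining members are named to account for all 25. Alternatives covered quantile and median scaling, addition of 16 before the log, the filter dropped or raised to the 60th percentile, other variance models, array weights, the whole series table, the replicate block and leaving out each array. A filter recomputed over the 7 arrays left without WT array 4 was added after seeing the data. Precision is limited by how many arrays there are.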

Additional observations from a re-analysis of the deposited data

Results flagged for a closer look

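In 5 of 74 label groups of 4 arrays checked, for the 25 P450 genes and the other genes named, 1 array lay farther from the rest than Dixon's 95% critical ratio for 4 values allows; chance gives about 1 in 20. CYP79C2 was at 2.78 on WT array 4, against 2.0 to 2.13 on the other WT arrays. CYP71B31 was at 1.35 on WT array 2, against 1.02 to 1.07, a difference among signals far under the filter value. HCT was at 7.66 on WT array 1, against 7.30 to 7.33. PYK10 was at 6.84 on WT array 4, against 9.23 to 9.70 on the other 3. FBN5 was at 5.15 on WT array 4, against 3.35 to 3.54. CYP71B19, with 4.78 on WT array 4, had a ratio of 0.766 and did not pass.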

How the results depend on the processing

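The count of P450 genes called lower, 1 as reported, was 3 of 13 (23.1%) with arrays set to a common median. With array weights it was 4 of 13 (30.8%). Of all tested probe sets, 11% and 14.7% were called lower, in the same order of settings. The 4 with array weights include CYP71B19 (limma adjusted p = 0.0487). Its fbn5-1 mean, 2.52, was under the filter value, so it passed the filter through the WT arrays. The count was 0 without a filter, without an intensity trend, over the whole series table and with the replicate block. It was between 0 and 3 when 1 array was left out under the filter of all 8 arrays. The 3, without WT array 4, hold CYP71B19, whose mean over the other 7 arrays is under the filter. With the filter recomputed over those 7, chosen after seeing the data, the count was 2 of 12. Among all tested probe sets, 2227 (13%) were then called lower and 1648 higher. Over all tested probe sets, the replicate block called 849 higher and 882 lower, and array weights called 1926 higher and 2524 lower, a common median 1231 higher and 1879 lower; leaving out 1 array gave 909 to 1635 higher and 827 to 2219 lower. FBN5's difference was called with array weights (1.14). It was also called without WT array 4, both under the filter of all 8 arrays and under the recomputed filter (1.20 in each). It lay between 0.60 and 1.20 when 1 array was left out. Signs of small differences turned: with quantile normalization for CYP84A4 (-0.016), HCT (0.048) and PRK (0.00031), and over the fits that leave out 1 array for CYP71B5 (-0.18 to 0.016), CYP84A4 (-0.054 to 0.10), HCT (-0.091 to 0.055), RCA (-0.066 to 0.0042) and PRK (-0.17 to 0.033). None of these 5 was called in any fit. The causes of these changes were not tested. Without a filter and over the whole table the adjustment ran over more probe sets, 28583 and 23037 against 17147, and the variances were fitted anew. Arrays of the same number deviated together at correlations of 0.157, -0.187, -0.037 and 0.0019 for numbers 1 to 4. The highest correlations with another number were 0.151, 0.156, 0.016 and 0.050, in the same order. With 1 array per number and label, these values cannot decide whether the numbers pair the samples. Under the block the calls of CYP71B26 and GID1A ended. Counting every probe set of a gene gave no other value, since each gene had 1.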
